A study of Mus musculus with 20 samples.

Results

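The 1302 regions described here are pRb peaks of proliferating wild-type (WT) mouse embryonic fibroblasts on chromosomes 1 to 19 that shared at least 1 bp with a pRb peak of proliferating fibroblasts of the genotype labelled SS. They were chosen by that measured overlap, and they are 1302 of 76548 WT peaks on these chromosomes, or 1.7%. The other 75246 WT peaks are called not shared. Seen from the SS list, 1305 of 104728 autosomal peaks, or 1.25%, met a WT peak. Because the overlap chose the members, neither share is a finding. Length, score and clustering, which come from the same lists, are given as descriptions.

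pRb, the product of the retinoblastoma gene, is a tumour suppressor that binds E2F transcription factors and recruits proteins that repress transcription. It is best known for restraining E2F target genes until cyclin-dependent kinases phosphorylate it in cycling cells. Ezh2 is the catalytic subunit of Polycomb repressive complex 2, which places the H3K27me3 mark on histone H3, and this mark covers silent developmental genes and other inactive chromatin in fibroblasts.

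All cells were fibroblasts of C57BL/6 embryos at stage E13.5, grown in 10% serum to passage 4, and fixed with a long-arm linker followed by formaldehyde before immunoprecipitation and sequencing. The labels set WT cells beside SS cells and do not spell the SS genotype out, nor do they give the number of embryos per library. Besides the proliferating pRb lists, 8 other peak lists were used: pRb in arrested WT and SS cells, Ezh2 in serum-deprived WT and SS cells, and H3K27me3 in arrested and in proliferating cells of each genotype. For pRb the labels name 5 antibodies, and the arrested pRb libraries are labelled confluence arrested, while 0.1% serum for 72 h is given as the way of arrest. Each combination had 1 library, so no difference has a replicate check and no test across samples was possible. Sequencing depth is unknown from the lists. Peaks were not assigned to genes, and the labelled cell type was not checked against marker genes.

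The lists that the members were compared with differed in size. The proliferating lists covered 11.3 Mb of the autosomes in WT and 15.3 Mb in SS cells. Arrested pRb peaks covered 75.9 Mb in WT and 134.8 Mb in SS cells, Ezh2 peaks covered 79.0 and 121.5 Mb, and H3K27me3 peaks covered between 159.5 and 283.8 Mb. The share of peaks that meets a list therefore cannot be ranked between lists, and the comparisons below set shared against not shared peaks within 1 list.

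Most shared peaks met their SS partner in part rather than at the same place. The overlap had a median of 79 bp (quartiles 43 and 112 bp), which was 54.1% of the WT peak, and the midpoints of the partners lay a median of 64 bp apart. In 642 members, or 49.3%, the overlap held at least 50% of both peaks, and 209 members lay to at least 90% inside the SS peak. At the edge of the rule, 9 members shared 1 bp. One of them lies on chromosome 2 at 93008876-93009031 (mm9, as all positions here), with an SS peak that starts at its last base, 93009031. The 85 members that shared 10 bp or fewer had a median length of 151 bp and a median score of 23.75. Just outside the rule, 75 WT peaks had at most 9 bp between them and an SS peak, with a median length of 148 bp and a median score of 24.37. The members next to the threshold and the peaks just beyond it were thus alike in these measures. In all, 719 WT peaks that were not shared lay within 100 bp of an SS peak.

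Scores of the partners were nearly unrelated. The score is the authors' value per peak in column 5, whose unit no header states and whose lowest value is 20.01 in the WT and 20 in the SS list. Across the 1302 pairs, which share a place by construction, Spearman's rho was 0.0778 for the score and 0.0366 for the length. Of the members, 644 lay at or above the median score of the WT list and 664 had an SS partner at or above the median of the SS list, and 343 pairs did both. Only 6 pairs lay among the 1000 highest scores of each list.

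In their quartiles of length and score, shared peaks differed little from the other WT peaks. Their median length was 150 bp (95% interval 149 to 151), against 148 bp for peaks not shared. Their median score was 24.02 (23.75 to 24.28), against 24.08. The quartiles of length were 134 and 161 bp against 132 and 160 bp, and those of the score were 22.16 and 27.89 against 22.16 and 27.38. In the SS list the medians were 147 against 145 bp and 24.37 against 24.30. The members' median was thus 2 bp longer than that of the other WT peaks (interval 1 to 3 bp), and their median score was not separated from that of the others.

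**Figure D1:**
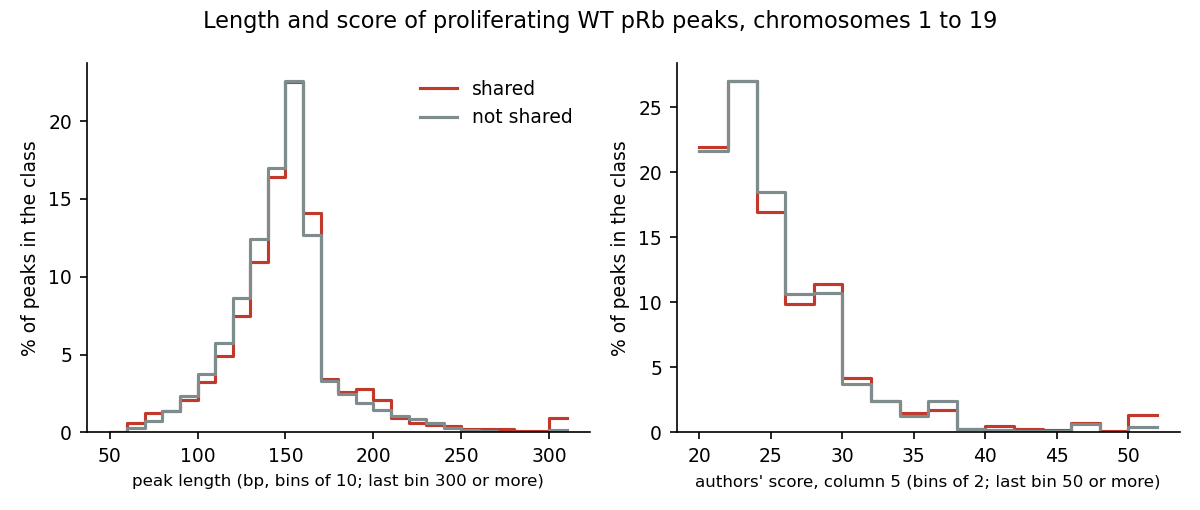
Histograms of peak length (left, bp) and authors' score (right) for the 1302 shared and 75246 not shared proliferating WT pRb peaks, each as a percentage of its class, with longer peaks and higher scores gathered in the last bin. Single bins differ in either direction, as in the 10 bp bins from 130 bp (10.98% against 12.43%) and from 160 bp (14.13% against 12.66%), and in the last bins 0.922% against 0.178% were 300 bp or more and 1.31% against 0.392% scored 50 or more.

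The extremes differed more than the medians. A length of 300 bp or more was found in 12 members (0.922%) and in 134 peaks not shared (0.178%), and a score of 50 or more in 17 members (1.31%) and in 295 not shared (0.392%). These thresholds were chosen after the distributions were seen, and longer peaks meet another list more easily. The share of WT peaks that were shared was 1.55% among peaks of 54 to 127 bp and 1.99% among those of 163 to 4654 bp, the ends of 5 length classes of similar size. Across 5 such classes of the score it ranged from 1.51% to 1.96%, without a steady order. Among the 100 highest-scoring WT peaks 7 were shared (Wilson interval 3.43% to 13.75%), among the 500 highest 22 (4.40%) and among the 5000 highest 96 (1.92%). In the SS list 0 of its 100 highest-scoring peaks were shared, which allows a share of up to 3.70% (Wilson). That interval overlaps the one of the WT list and holds the 1.25% over the whole SS list. Of its 500 highest, 8 (1.60%) were shared. Further down, 78 of its 5000 highest (1.56%, 1.252 to 1.94) and 170 of its 10000 highest (1.70%, 1.47 to 1.97) were shared, somewhat above the 1.25% over the whole list. A score of 50 or more was found in 2.68% of shared and 2.23% of not shared SS peaks. No SS or WT peak with a score of 100 or more was shared, of 104 such autosomal peaks in SS and 5 in WT. Numbers this small do not separate 0 from the shares over the whole lists, 1.25% in SS and 1.7% in WT.

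**Figure D2:**
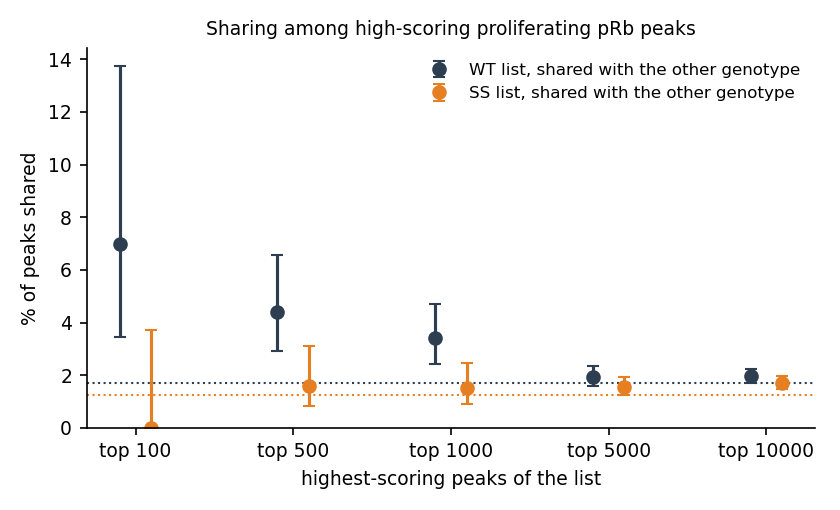
Percentage of peaks shared with the other genotype among the 100 to 10000 highest-scoring autosomal peaks of the proliferating WT and SS pRb lists, with Wilson 95% intervals, and dotted lines at the share over the whole list (1.7% in WT, 1.25% in SS). In WT the share is 7.00% in the first 100 and 1.92% to 1.95% in the first 5000 and 10000, and in SS it lies between 0% and 1.7%.

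The members of highest score were short. Of the 17 with a score of 50 or more, 12 were 100 bp long or less and the median length was 78 bp, and the 295 not shared peaks of such score had a median of 66 bp. The highest, on chromosome 10 at 97684049-97684125, scored 83.55 in WT and held an SS peak of 72 bp that scored 47.1. Of the other lists only arrested WT H3K27me3 had a peak there. The next, on chromosome 1 at 24862011-24862096, scored 78.35 in WT and 25.56 in SS cells and met 1 Ezh2 SS peak. A peak on chromosome 6 at 18631849-18631914 scored 77.8 in WT and 71.08 in SS cells and met no other list. These 3 high WT scores thus went with SS scores from just above the SS median of 24.30 to high in the SS list, where the partners ranked 2714, 43483 and 414.

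The remaining 7 of the 10 highest WT scores ranged from 56.38 to 69.53. On chromosome 8 at 73694863-73695098 a peak of 236 bp scored 64.22 in WT and 47.0 in SS cells and met 5 other lists: arrested SS pRb, Ezh2 SS, arrested WT H3K27me3 and both proliferating H3K27me3 lists. On chromosome 6 at 85820538-85820657 the scores were 69.53 and 43.33, and on chromosome 5 at 80243639-80243758 they were 66.05 and 52.86, each with 2 H3K27me3 lists. On chromosome 7 at 6563413-6563594 a WT score of 59.4 stood beside an SS score of 23.31. On chromosome 1 at 103608701-103608792 the scores were 56.94 and 47.02, and both Ezh2 lists had a peak. The last pair, on chromosome 4 at 81622206-81622283 and chromosome 5 at 135660061-135660120, both scored 56.38 in WT, and 29.58 and 36.24 in SS cells. The 3 WT peaks of highest score, all not shared, scored 339, 180 and 152.6, and the highest member ranked 13 in the WT list. With 1.7% of all autosomal WT peaks shared, 3 peaks are too few to set members apart from the others.

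The 5 longest members had WT scores of 20.31 to 26.31 only. The longest, on chromosome 8 at 19726333-19727213, had 881 bp, a score of 26.31, and an SS partner of 945 bp that scored 20.13. Both Ezh2 lists, arrested SS pRb and both proliferating H3K27me3 lists had a peak there. On chromosome 5 a member of 711 bp at 15051264-15051974 (score 21.19) met 6 other lists, and one of 429 bp at 14994399-14994827 (score 24.8) met 5. The latter lies in the 100 kb bin at 14900001-15000000, which held 22 WT and 14 SS pRb peaks, the most WT peaks of any bin. A member of 665 bp on chromosome 1 at 87391366-87392030 met 3 lists. By contrast, the second longest, on chromosome 12 at 68160146-68160892, matched its SS partner over all its 747 bp, scored 20.31 in WT and 21.49 in SS cells, and met none of the other lists. Of the 12 members of 300 bp or more, 9 met an arrested pRb peak, 7 an Ezh2 peak and 8 an H3K27me3 peak, and 5 lay in bins of 10 or more WT peaks. Of the 134 not shared peaks of that length, 75, 77 and 78 met these lists, and 44 lay in such bins.

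Along the chromosomes the members were scattered. They fell into 1255 of the 22751 bins of 100 kb that held an autosomal WT peak, 1208 with 1 member and 47 with 2, and no bin had more. The nearest other member was a median of 547.6 kb away, and 34 members had another within 10 kb. The first 5 of the bins with 2 members, in order of position, lie on chromosome 1 and start at 13100001, 24800001, 87300001, 93200001 and 105300001, with 71 to 19418 bp between their members.

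Another WT peak, shared or not, lay within 10 kb of 51.2% of members (95% Wilson interval 48.5 to 53.9) and of 48.8% of peaks not shared (48.4 to 49.2). Within 1 kb the shares were 8.68% (7.27 to 10.3) and 6.97% (6.79 to 7.16). The neighbours belong to the lists that the rule used, so these shares and ratios are descriptions and test nothing. With the 1 bp rule the difference at 10 kb was within the counting interval, and the one at 1 kb, a ratio of 1.25 (1.04 to 1.49), was not. Some other rules gave intervals above 1 at 10 kb. The ratio was 1.085 (1.008 to 1.168) with a reciprocal overlap of 50% and 1.093 (1.02 to 1.17) by the WT midpoint. It was 1.058 (1.001 to 1.118) with peaks merged and 1.07 (1.016 to 1.127) with all chromosomes. The interval held 1 in the higher-scoring part and without dense bins or long peaks. For SS peaks the 10 kb ratio was 1.062 (1.019 to 1.106). The share of WT peaks that were shared was 1.61% (1.495 to 1.73) in bins of 1 to 4 WT peaks, 1.81% (1.66 to 1.96) in bins of 5 to 9, and 2.37% (1.68 to 3.35), or 31 of 1307 peaks, in the 115 bins of 10 or more. Members had on average 5.86 SS peaks in their bin and the others 4.56, a difference that the rule itself favours. Among the autosomes the shared part ran from 1.42% (1.09 to 1.83) on chromosome 9 to 2.23% (1.85 to 2.70) on chromosome 5, and on all autosomes but chromosome 5 it was 1.87% or less.

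The 8 other lists took no part in choosing the members. In each of them a larger share of shared than of not shared WT peaks had an overlapping peak, by 0.551 to 2.46 percentage points. The 95% interval of the ratio lay above 1 in 3 of 8 lists: Ezh2 WT, Ezh2 SS and arrested SS pRb. These intervals, like those below, hold counting error alone, and they treat peaks as independent although neighbours can share a source. With an overlap of at least 50% of both peaks as the rule, only Ezh2 WT kept an interval above 1 among these 3 (1.45, 1.19 to 1.77), with 1.15 (0.956 to 1.38) for Ezh2 SS and 1.16 (0.936 to 1.43) for arrested SS pRb. For arrested SS pRb the interval also held 1 without peaks of 300 bp or more (1.14, 0.977 to 1.33), with the WT midpoint in an SS peak (1.16, 0.954 to 1.42) and in the higher-scoring part of both pRb lists (1.08, 0.798 to 1.46).

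With the 1 bp rule the Ezh2 WT list gave the largest ratio of the 8. With peaks within 1 kb merged, arrested SS pRb (1.32) and arrested WT pRb (1.30) stood above it (1.29). Ezh2 WT peaks met 151 members, 11.6% (9.97 to 13.45), and 9.14% (8.94 to 9.35) of peaks not shared, a ratio of 1.27 (1.09 to 1.48). Ezh2 SS peaks met 203 members, 15.6% (13.7 to 17.7), and 13.3% (13.03 to 13.52) of the others, a ratio of 1.18 (1.03 to 1.34). An Ezh2 peak of either genotype was found at 311 members, 23.9% (21.7 to 26.3), and at 21.0% of the others, so most peaks of both classes met none.

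Arrested pRb peaks gave like ratios. In SS cells they met 159 members, 12.2% (10.5 to 14.1), against 10.2% (10.0 to 10.4), a ratio of 1.20 (1.03 to 1.39). In WT cells they met 96 members, 7.37% (6.08 to 8.92), against 6.24% (6.07 to 6.42), a ratio of 1.18 whose interval, 0.972 to 1.44, holds 1. With peaks merged it was 1.30 (1.11 to 1.53), and with all chromosomes 1.22 (1.01 to 1.47). A peak in both arrested lists, and thus in all 4 pRb lists, was found at 13 members, 0.998% (0.584 to 1.70), and at 0.763% of the others, shares that counting error does not separate. These 13 had scores of 21.16 to 34.7 in WT cells and lay on 11 chromosomes. An arrested pRb peak of either genotype was found at 242 of 1302 members (18.6%, 16.6 to 20.8) and at 15.7% of the others. Most peaks of both classes thus met none, and the share was somewhat higher in members.

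For H3K27me3, with the 1 bp rule, the shares of shared and not shared peaks were not separated by counting error in any of the 4 lists. They were 13.3% and 12.35% in arrested WT, 9.06% and 8.46% in arrested SS, 11.9% and 11.35% in proliferating WT, and 15.75% and 13.9% in proliferating SS cells, where the ratio was 1.13 (0.999 to 1.29). Other rules did separate 2 of the lists. For arrested WT the ratio was 1.25 (1.04 to 1.5) with a reciprocal overlap of 50%, 1.22 (1.03 to 1.46) with the WT midpoint in an SS peak and 1.15 (1.03 to 1.28) with peaks merged. For proliferating SS it was 1.32 (1.05 to 1.65) in the higher-scoring part of both pRb lists and 1.18 (1.05 to 1.32) with peaks merged. H3K27me3 peaks over 10 kb, the broad domains of the mark, held 34 members in the proliferating WT list, 2.61% (1.87 to 3.63), against 2.55% of the others. In the proliferating SS list they held 38, 2.92% (2.13 to 3.98), against 3.06%. Counting error did not separate shared from other WT pRb peaks in the broad domains of either genotype.

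**Figure D3:**
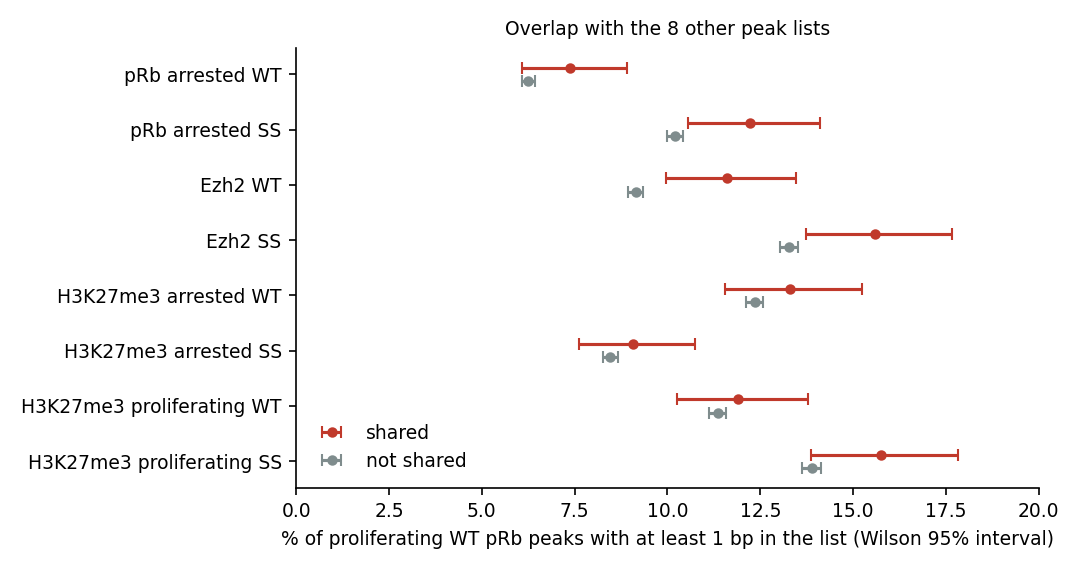
Percentage of shared (1302) and not shared (75246) proliferating WT pRb peaks with at least 1 bp in each of the 8 other lists, with Wilson 95% intervals over peaks. Shared peaks lie higher in all 8 lists, by at most 2.46 percentage points (Ezh2 WT), and the intervals of the classes are apart for Ezh2 WT, Ezh2 SS and arrested SS pRb.

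Seen from the SS list the Ezh2 excess recurred. Of the 1305 SS peaks that met a WT peak, 12.2% (10.5 to 14.1) met an Ezh2 WT peak, against 8.73% of the other SS peaks, a ratio of 1.40 (1.20 to 1.62). For Ezh2 SS the shares were 15.5% and 12.8%, a ratio of 1.21 (1.06 to 1.37). These SS peaks lie at the members' own places, so they are the same sites set against another background. For arrested SS pRb the ratio was 1.09 (0.937 to 1.28) on this side. That interval holds 1, but those with SS midpoints set against the list (1.26, 1.04 to 1.51), with peaks merged (1.27, 1.13 to 1.43) and with all chromosomes (1.17, 1.01 to 1.36) lay above 1. For arrested SS and proliferating WT H3K27me3 the ratios were 0.996 and 0.997.

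The ratios were also set within the 5 length classes. The shares of peaks not shared were weighted to the members' numbers in each class. The WT ratios to these weighted shares ranged from 1.05 to 1.26 over the 8 lists, against 1.05 to 1.27 before. The longest class, 163 to 4654 bp, leaves differences in length within it. Without peaks of 300 bp or more the WT ratios ran from 1.008 (proliferating WT H3K27me3) to 1.21 (Ezh2 WT, 1.035 to 1.417). The interval then lay above 1 in 2 of 8 lists, Ezh2 WT and Ezh2 SS (1.16, 1.018 to 1.32). The classes themselves varied. In the shortest, 13.8% of members against 8.35% of the others met an Ezh2 WT peak, in the longest 17.7% against 11.3%, and at 128 to 142 and 143 to 153 bp the order was the other way (5.80% against 8.37%, and 6.45% against 8.62%). For Ezh2 SS the ratio was 1.44 in the shortest and 1.48 in the longest class, and 0.928, 1.05 and 0.901 in the classes between. Over 8 lists and 5 classes some intervals can miss 1 by counting error alone. Proliferating WT H3K27me3 peaks met fewer members in the shortest class, 6.07% against 11.4% (ratio 0.532, 0.325 to 0.871). In the longest class they met more, 15.8% against 11.9% (1.33, 1.003 to 1.76). There the ratio for proliferating SS H3K27me3 was 1.41 (1.11 to 1.79). With the WT midpoint alone set against the lists, the ratio was 1.45 (1.16 to 1.82) for Ezh2 WT and 1.38 (1.14 to 1.66) for Ezh2 SS, and the interval lay above 1 for both arrested pRb lists as well.

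Places with peaks in several lists were a small part of the members, and in some combinations the difference was larger. For H3K27me3 counting error did not separate the classes. All 4 H3K27me3 lists met 2.15% (1.49 to 3.09) of members against 1.79% of the others. Both arrested H3K27me3 lists met 2.92% (2.13 to 3.98) against 2.465%, and both proliferating ones 9.45% (7.97 to 11.16) against 8.82%. A peak in both Ezh2 lists was found at 43 members, 3.30% (2.46 to 4.42), and at 1.46% (1.37 to 1.55) of the others, a ratio of 2.27 (1.68 to 3.06). In the SS list the ratio was 2.28 (1.67 to 3.11). These 43 members lay on 17 chromosomes and had a median length of 161 bp and a median score of 24.80, 15 of them also met an arrested pRb peak, and 4 lay in bins of 10 or more WT peaks. Of the 1097 not shared peaks with both Ezh2 lists, 266 met an arrested pRb peak and 66 lay in such bins. An arrested pRb peak and an Ezh2 peak of either genotype together were found at 75 members, 5.76% (4.62 to 7.16), against 3.72%. No other list met 595 members, 45.7% (43.0 to 48.4), against 49.99% (49.6 to 50.3) of peaks not shared. At least 5 of the 8 lists met 25 members, 1.92% (1.30 to 2.82), against 0.986% (0.918 to 1.06), a ratio of 1.95 (1.31 to 2.89). The thresholds of these 2 ratios were chosen after the data were seen.

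**Figure D4:**
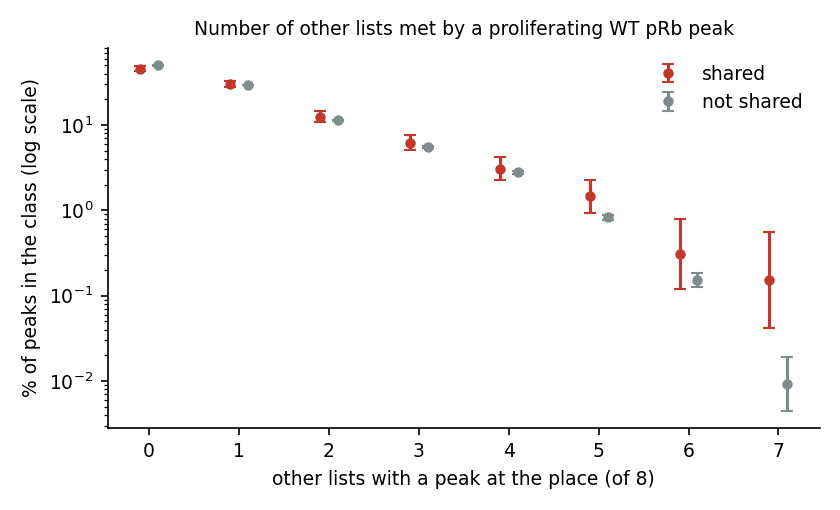
Percentage of shared and not shared proliferating WT pRb peaks (log scale) by the number of the 8 other lists with an overlapping peak, with Wilson 95% intervals; no peak met all 8. The classes run from 45.7% and 49.99% with no other list to 0.154% and 0.00930% with 7.

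The members that met most lists had WT scores of 21.16 to 29.58 and, with 1 exception, lengths of 120 to 167 bp. On chromosome 9 at 3258816-3258982 a member of 167 bp (score 27.0 in WT and 26.19 in SS cells) met 7 lists, all but arrested SS pRb. On chromosome 11 at 43341252-43341413 one of 162 bp (21.16 and 24.66) met 7 lists, all but Ezh2 WT. A member on chromosome 1 at 46132908-46133027 (29.58 and 41.45) met 6, as did one on chromosome 2 at 165322990-165323133 (23.25 and 20.28). The exception is the member of 711 bp on chromosome 5 named above.

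Members that shared over 150 bp with the SS peak met both Ezh2, both arrested pRb and both proliferating H3K27me3 lists more often than members that shared less. These 49 members met Ezh2 WT peaks and Ezh2 SS peaks in 26.5% each (16.2 to 40.3) and arrested SS pRb peaks in the same share. They met arrested WT pRb peaks in 16.3% (8.51 to 29.0), and proliferating H3K27me3 peaks in 30.6% (19.5 to 44.5) in WT and 32.7% (21.2 to 46.6) in SS cells. At 1 to 50 bp shared these last 3 values were 8.38%, 12.0% and 15.7%. The 382 members that shared 1 to 50 bp met Ezh2 WT in 9.16% (6.66 to 12.5), Ezh2 SS in 13.1% (10.1 to 16.8) and arrested SS pRb in 10.5% (7.78 to 13.95). Between these ends the order was not steady: at 51 to 100 bp shared the values were 10.7%, 17.6% and 15.0%, and at over 100 and up to 150 bp 13.3%, 14.1% and 8.62%. For Ezh2 WT, Ezh2 SS and arrested SS pRb the values at 1 to 50 bp were close to those of the 719 peaks that missed an SS peak by 100 bp or less, which were 10.2%, 12.9% and 12.4%. They were also close to those of the 30551 peaks over 10 kb from any SS peak, which were 9.26%, 13.3% and 10.1%. The 49 were longer than the rest, with a median of 183 bp, and the part of length in their shares was not tested.

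**Figure D5:**
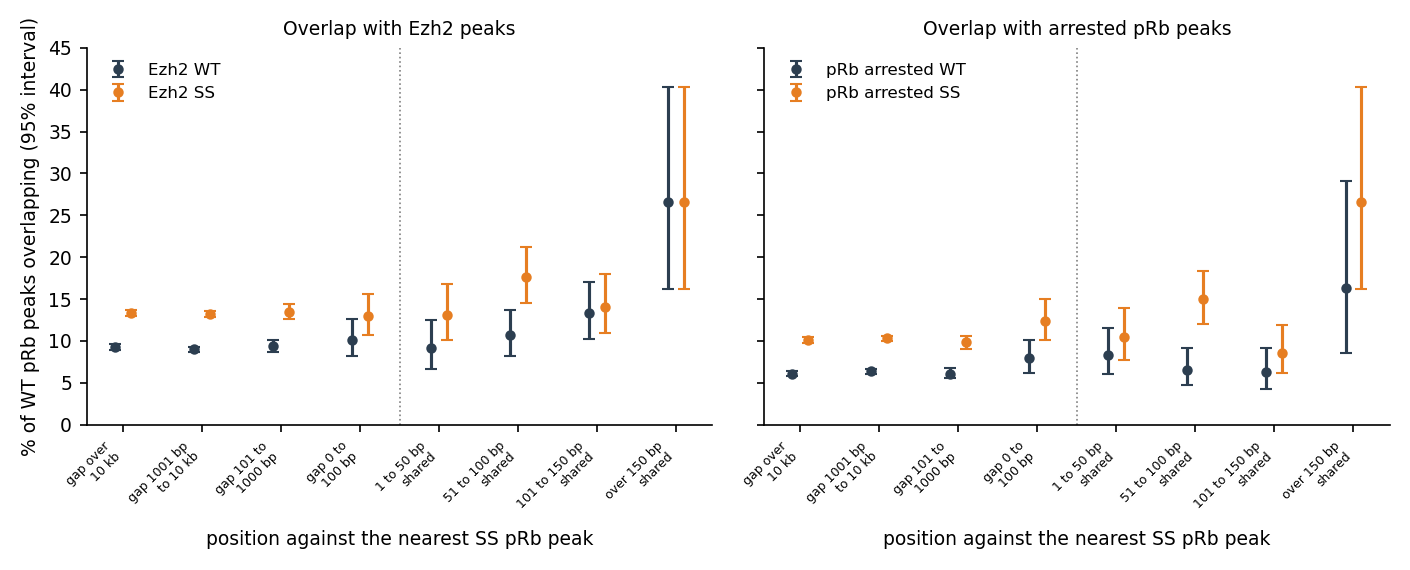
Percentage of proliferating WT pRb peaks that met Ezh2 (left) and arrested pRb (right) peaks, by their gap to the nearest SS pRb peak (left of the dotted line, not shared) or the bp shared with it (right, members), with Wilson 95% intervals. Shares stay between 6.10% and 13.46% at gaps over 100 bp and reach 26.5% for Ezh2 WT, Ezh2 SS and arrested SS pRb in the 49 members that shared over 150 bp.

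The peaks of other lists that members met differed from those that other WT peaks met in some lists. Among the Ezh2 WT peaks met by members 15.2% (10.4 to 21.8) were in the top 10% of their list by score, against 10.1% (9.44 to 10.9) of those met by peaks not shared. For Ezh2 SS it was 13.7% (9.67 to 19.1) against 10.8% (10.2 to 11.4). The intervals of the 2 classes overlapped in both Ezh2 lists. The median scores were also equal, 18.0 in each class for Ezh2 WT and 24.0 in each class for Ezh2 SS. Arrested pRb peaks met by members had median scores of 86.41 (69.36 to 100.3) in WT and 87.85 (82.12 to 109.0) in SS cells, against 96.21 and 109.6 for those met by other WT peaks and 106.3 and 119.3 over all. Arrested pRb peaks at members thus scored lower than the median of their list, and so did those at other WT peaks. In WT cells the members' interval held the 96.21 of the others. In SS cells it lay just below the 109.6 of the others but overlapped their interval of 107.1 to 109.6. The median length of arrested WT pRb peaks met by members was 223 bp, against 153 bp for those met by other WT peaks. Arrested WT H3K27me3 peaks met by members had a median score of 77.0 (65.0 to 91.0), against 94.0 (92.0 to 96.0) for those met by other WT peaks. The median of that list was 85.0, within the members' interval and below that of the others. Proliferating H3K27me3 peaks met by members had a median length of 2762 bp in WT and 2378 bp in SS cells, against 3050 and 2835 bp for those met by other WT peaks. Over all such peaks the median was 735 and 705 bp, and longer peaks are met more often by construction.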

How the data were processed

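One list of peaks per immunoprecipitated library was used, 10 in all; inputs (10 libraries) were not analysed here. Groups come from the sample titles. Per the submitters' processing notes Bowtie2, MACS2, HOMER and bedtools were used with build mm9, and no version, role or setting is given. The 4 pRb lists deposited by the authors hold a score per peak (column 5). The other 6 deposited lists hold a score, the fold enrichment as a ratio, and the -log10 p-value and -log10 q-value. Of these columns only scores were used, within a list. More reads or looser settings give more and weaker peaks, which moves every overlap, and depth is unknown.

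Peaks were intersected at 1 bp on chromosomes 1 to 19. Shares have Wilson 95% intervals, ratios of shares log-normal 95% intervals, and medians order-statistic intervals. Peaks of equal score were given the same rank, and ties were broken by position in the counts among the highest-scoring peaks. The regions named are the 10 members of highest score, the 5 longest, the 5 meeting most other lists and the first 5 bins of 100 kb with most members. The members and lists were chosen with earlier results of these data known. Simulated lists with planted overlaps served to test the overlap code. No mm9 genome or annotation was used, so no sequence or gene is given. The tools were scipy 1.17.1, matplotlib 3.10.9, pandas 2.3.3 and numpy 2.4.6 under Python 3.11.15.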

Additional observations from a re-analysis of the deposited data

How the results depend on the processing

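With 1 library per group no replicate could be left out and no test stands behind these values. Of 203 values recomputed under alternatives, 182 stayed within the counting interval of the main value (or 1.5 times, for the number of members), 21 moved beyond it, and none counted as reversed, which needs a main interval that excludes no difference. The number of members was 642 with a reciprocal overlap of 50%, 722 by the WT midpoint and 345 in the higher-scoring part of both lists. The median length difference, 2 bp, was 0 bp by the WT midpoint and 4 bp in the higher-scoring part and with peaks within 1 kb merged. The median score difference, -0.06, was 0.22 by the midpoint and 0.78 in the higher-scoring part. With a window of 1 kb the neighbour ratio was 1.25. In the higher-scoring part the WT ratios were 1.55 for Ezh2 WT, 1.40 for Ezh2 SS and 1.32 for proliferating SS H3K27me3. There the SS ratios were 0.838 for arrested SS pRb and 1.43 for Ezh2 SS. With midpoints set against the other lists the Ezh2 SS ratio was 1.38 in WT and 1.44 in SS. With the reciprocal overlap the arrested WT H3K27me3 ratio was 1.25. In the higher-scoring part the ratios were 3.20 for both Ezh2 lists, 3.68 for 5 or more lists and 5.55 for a score of 50 or more, and with midpoints the first was 3.29. The cause of these shifts was not tested. The ratio for both Ezh2 lists was lowest with peaks within 1 kb merged, 1.74 (1.41 to 2.14), which stayed within its main interval. All 8 WT ratios stayed above 1 in every alternative run. Leaving out bins of 3 or more members changed nothing, as there were none. Chosen after the data were seen, leaving out the 115 bins of 10 or more WT peaks and leaving out peaks of 300 bp or more gave ratios of 2.20 and 1.99 for both Ezh2 lists and 1.67 and 1.64 for 5 or more lists.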

Other observations

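The X and Y chromosomes lie outside the rule. Of the proliferating WT pRb peaks on X, 45 of 1199 met an SS peak, which is 3.75% (2.82 to 4.99, Wilson), and on Y 6 of 62 did, 9.68% (4.51 to 19.6). Both intervals lie above that of chromosome 5 (1.85 to 2.70), the highest autosome, and the SS list held 1.40 times as many peaks as the WT list on X and 1.03 times on Y, against 1.29 to 1.54 times on the autosomes. These values rest on 1 library per genotype.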
